A study of Mus musculus with 6 samples.

Results

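The genes described here are 42 genes of cholesterol synthesis and fatty acid metabolism, chosen by gene symbol from a list of enzymes, regulators and transporters, and all 42 were among the 15442 genes of the expression table. RNA was sequenced from cells of mouse liver sorted by flow cytometry for the green fluorescence of a Foxp3 reporter, which marks regulatory T cells (Treg cells, a class of CD4 T cells with a restraining role in immunity). The cells are labelled T cells, and came from a mouse model of autoimmune hepatitis (AIH, an immune attack on the liver) in 3 libraries and from control mice in 3 libraries, and both groups carried the Foxp3-GFP reporter. Strain, age, sex, the way the disease was induced and the number of animals or cells behind a library were not stated in the sources used here. Single cells are mentioned in the labels' protocol, but a library is 1 sample with no map to cells. No label ties a library to a separate animal, so p-values measure the spread between these libraries, which may be technical. Each library was made by SMART-Seq2, which copies polyadenylated RNA of small inputs into full-length cDNA. Libraries held 17780509 to 24572388 expected counts (reads per gene, in part shared between features and so not always whole).

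The markers of the sort went partly against the labels. Foxp3 itself was at 0.27, 4.13 and 1.56 CPM (counts scaled to a common library size) in AIH 1, AIH 2 and AIH 3 and at 16.8, 14.1 and 38.3 CPM in Control 1, Control 2 and Control 3, so the former are called the libraries labelled AIH. All 8 T cell and Treg markers were counted in every library, with 5 positive and 3 negative log2 fold changes (Foxp3 −3.54, Cd4 −0.67 and Il2ra −0.04). Their summed levels of 6767 to 7387 CPM in the libraries labelled AIH and 2933 to 4401 CPM in the controls were mostly Cd3d and Cd3g, chains of the T cell receptor complex. The 13 macrophage markers, of which Clec4f, Vsig4 and Timd4 define the resident macrophages of the liver, summed to 386, 2096 and 2713 CPM in the libraries labelled AIH and to 6472, 3480 and 15746 CPM in the controls. Every library labelled AIH lay below every control for 10 of these 13. Cd163 was the 1 macrophage marker at 0, in AIH 1. Of 10 hepatocyte markers 9 were in the table, with sums of 493 to 2283 CPM in the libraries labelled AIH and 689 to 2534 CPM in the controls, and the groups overlapped for each, with all 9 log2 fold changes negative. The 4 B cell markers summed to 37.3 to 114 CPM against 150 to 378 CPM and the 4 endothelial markers to 4.05 to 22.7 CPM against 52.1 to 77.9 CPM. All 4 B cell and all 3 tested endothelial markers had negative log2 fold changes, and every library labelled AIH lay below every control for Cd79b and for Pecam1. AIH 1, with the lowest macrophage sum, and Control 3, with the highest, stand apart, and a fit without both is given for the 7 lipid genes whose groups did not overlap. In bulk libraries a smaller number of cells of a type and less RNA per cell cannot be told apart.

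Cholesterol is built from acetyl-CoA through the mevalonate pathway, whose intermediates also serve to anchor signalling proteins in membranes. When sterols run low in the endoplasmic reticulum, the escort protein Scap carries the transcription factors Srebf1 and Srebf2 (SREBP1 and SREBP2) to the Golgi for cleavage, and the cleaved factors switch on the genes of sterol and fatty acid synthesis, while Insig1 holds them back. Excess sterol is exported by the transporters Abca1 and Abcg1, which liver X receptors induce. Fatty acids are made in the cytosol, then elongated and desaturated, and are burned in mitochondria after activation to acyl-CoA. Activated effector T cells are known for active lipid synthesis, and Treg cells for use of fatty acid oxidation and for a dependence on the mevalonate pathway.

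Every sterol synthesis enzyme with a promoter entry held, in at least 1 window, a sequence feature that was not used to choose it. RefSeq promoter windows on GRCm38.p6, from 250 bases before to 50 bases after each start site, were present for 34 of the 42 genes. The motif CCAAT, the recognition sequence of the factor NF-Y that acts beside SREBP, occurred on either strand in a window of all 11 sterol synthesis enzymes with an entry. Pmvk and Dhcr7 had several windows, some of them without the motif, such as the Pmvk window that starts at base 89459321. A gene was counted if any of its windows held the motif. CCAAT was found for 43.9% of the 9021 tested genes that had an entry. It was found for 41.1% of all genes in the promoter table, so it is common by itself. Among the other roles it occurred for 3 of 4 sterol regulators, 4 of 7 fatty acid synthesis genes, 3 of 10 activation and oxidation genes and 1 of 2 uptake and export genes. The sterol regulatory motif TCACNCCAC, also searched on both strands, with no match overlapping one of CCAAT in these genes, was found for Hmgcs1 and Acsl1, 2 of 34 genes, against 1.36% of tested genes. A match describes letters in a window and is not a measured binding site. The windows of 4 genes are shown because they set enzymes with several copies of CCAAT (Hmgcs1 and Mvk) beside regulators of the pathway (Insig1 and Srebf2), with capitals marking both motifs on either strand.
Hmgcs1, chr13:119690101-119690400, plus strand: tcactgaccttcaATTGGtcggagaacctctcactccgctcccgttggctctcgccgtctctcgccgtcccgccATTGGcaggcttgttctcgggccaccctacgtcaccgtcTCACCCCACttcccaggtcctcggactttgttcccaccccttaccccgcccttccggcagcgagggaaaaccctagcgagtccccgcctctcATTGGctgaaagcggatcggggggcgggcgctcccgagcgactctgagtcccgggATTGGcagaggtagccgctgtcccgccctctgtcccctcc
Mvk, chr5:114444019-114444318, plus strand: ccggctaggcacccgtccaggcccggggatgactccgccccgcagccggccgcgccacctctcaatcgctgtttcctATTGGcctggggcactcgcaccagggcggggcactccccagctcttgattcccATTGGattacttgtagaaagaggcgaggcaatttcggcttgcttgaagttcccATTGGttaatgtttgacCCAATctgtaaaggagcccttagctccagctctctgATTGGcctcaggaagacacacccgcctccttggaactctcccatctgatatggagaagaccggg
Insig1, chr5:28071162-28071461, plus strand: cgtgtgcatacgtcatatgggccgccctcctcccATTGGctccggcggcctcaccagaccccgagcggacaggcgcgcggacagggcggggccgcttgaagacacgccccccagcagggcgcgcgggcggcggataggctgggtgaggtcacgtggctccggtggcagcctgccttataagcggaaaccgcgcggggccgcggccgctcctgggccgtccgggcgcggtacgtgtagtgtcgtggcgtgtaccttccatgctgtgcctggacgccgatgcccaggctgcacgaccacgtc
Srebf2, chr15:82147019-82147318, plus strand: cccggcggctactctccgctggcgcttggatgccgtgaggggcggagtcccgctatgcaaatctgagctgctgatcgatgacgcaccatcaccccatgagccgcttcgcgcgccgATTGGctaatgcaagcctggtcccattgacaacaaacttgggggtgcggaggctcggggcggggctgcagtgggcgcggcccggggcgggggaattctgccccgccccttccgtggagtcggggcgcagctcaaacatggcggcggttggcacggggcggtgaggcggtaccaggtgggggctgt
In the Hmgcs1 window the sterol motif began 137 bases before the start site and stood among 4 copies of CCAAT, while the Mvk window held 5 copies of CCAAT and the windows of Insig1 and Srebf2 held 1 each.

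None of the 42 genes passed the test of AIH against control. Of the 41 genes that passed the filter on low counts, 0 passed at 0.05 after Benjamini-Hochberg adjustment in the quasi-likelihood test of edgeR. Of the 11140 genes tested, 0.0898% passed, 9 higher (0.0808%) and 1 lower (0.00898%), or 2 higher and 1 lower with library totals as the scaling. At an unadjusted p under 0.05, 4 of the 41 genes were found, against 8.27% of all genes tested. They were Srebf2, Scd2 and Abca1, which had lower levels in the libraries labelled AIH (3.85% of all genes), and Acsl4, which had a higher one (4.42% of all genes). Also with no library of one group inside the range of the other were Acsl1, Acadvl and Hadha, which makes 6 genes with every library labelled AIH below every control (8.87% of all genes tested), 1 gene above (8.46%) and 7 in all (17.3%). The totals of 4 and 7 genes lie near those shares of all genes, and the uneven split of 6 below and 1 above was not tested. By DESeq2's Wald test 0 of these genes were called, by limma-voom 0, and 0 in each of the other alternative settings, 15 in all.

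Adjusted p-values of the 41 genes ran from 0.522 to 0.998 in the quasi-likelihood test of edgeR. The median log2 fold change over the 41 genes was −0.16 beside −0.04 over all genes tested, with 18 positive and 23 negative. With library totals as the scaling the median of all genes moved by −0.19 and 13 of the 41 were positive.

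**Figure D1:**
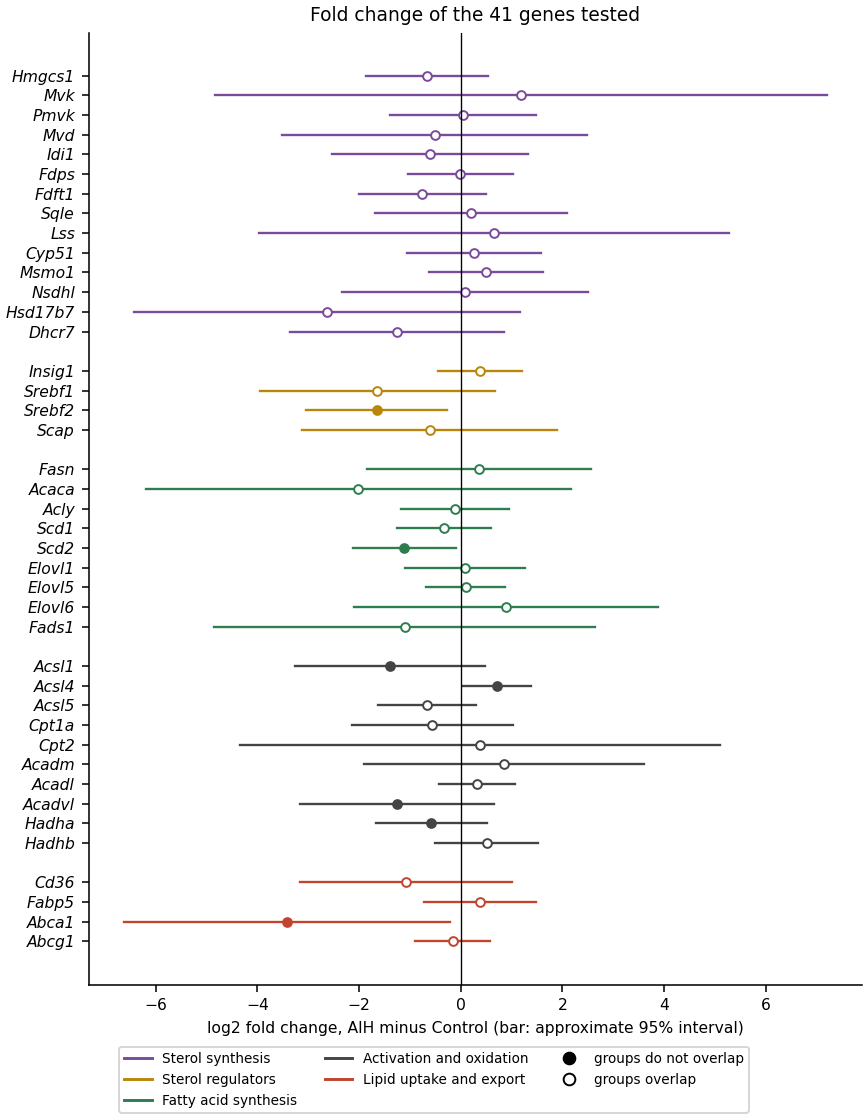
Log2 fold change of each of the 41 genes tested, AIH minus Control, by role, with an approximate 95% interval from the fit of 3 libraries per group. Filled points mark the 7 genes whose groups did not overlap. The intervals are not adjusted for the number of genes tested, and all cross 0 except those of Srebf2, Scd2, Acsl4 and Abca1.

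The libraries of a group differed widely from each other for many of these genes. Of the 41 genes tested, 14 had a library at 0 or a range over 10-fold within at least 1 group, a share of 34.1% beside 36.9% of all genes tested. Another 13 stayed within 3-fold in both groups, 31.7% beside 34.6% of all genes. On the length-corrected TPM scale the genes with the highest mean level were the same 5 in both groups, Fdps, Fabp5, Hadhb, Elovl5 and Acadl. Fdps, which makes the farnesyl group for sterols and protein prenylation, was at 96.0, 91.1 and 48.0 TPM in the libraries labelled AIH and at 142, 57.2 and 75.2 TPM in the controls. Fabp5, a carrier of fatty acids in the cytosol, was at 125, 45.5 and 74.7 TPM and at 91.6, 64.2 and 75.3 TPM, so the order of these genes at the top is within their spread. Fads2, the desaturase that starts the synthesis of polyunsaturated fatty acids, was counted at most 5 times in any library and was the 1 gene left untested.

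**Figure D2:**
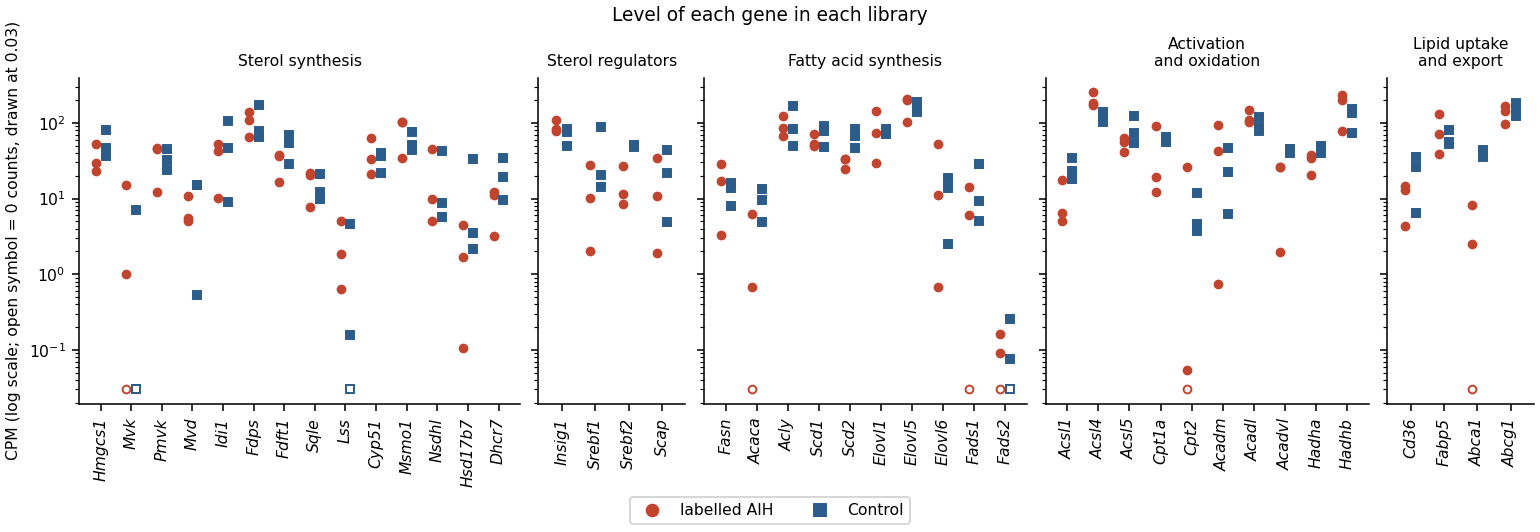
Level of each of the 42 genes in CPM on a log axis, 1 symbol per library, circles for the libraries labelled AIH and squares for Control, with open symbols for 0 counts drawn at 0.03. Insig1, Scd1, Acadl and Abcg1 form tight clusters, while Mvk, Cpt2, Acadm and Elovl6 spread over more than a factor of 10 within a group.

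The 14 enzymes of sterol synthesis had 7 positive and 7 negative log2 fold changes, with a median of 0.02, and the groups overlapped for all 14. With the macrophage mean in the model 3 were positive and 11 negative, with a median of −0.72, and none passed. Values ran from −2.63 (Hsd17b7) to 1.18 (Mvk), and both ends rested on single libraries. Hmgcs1, which condenses acetyl units to HMG-CoA at the entry of the pathway, was at 52.1, 22.8 and 29.3 CPM in the libraries labelled AIH and at 36.3, 46.6 and 81.8 CPM in the controls. The control values lay mostly higher, and the groups overlapped, with a log2 fold change of −0.66 (SE 0.53) and an approximate 95% interval of −1.86 to 0.54. It was −1.08 without AIH 1 and −0.25 without Control 3. Fdft1 (squalene synthase), the first step committed to sterols, was at 29.9 ± 11.7 CPM and 50.7 ± 20.1 CPM (SD, n = 3 per group).

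Sqle, the epoxidase that is a slow step of the late pathway, was at 20.3, 7.85 and 21.6 CPM in the libraries labelled AIH and at 9.91, 21.1 and 12.4 CPM in the controls. One library labelled AIH lay below all controls and one above, and the log2 fold change was 0.20 (SE 0.84). Msmo1 and Cyp51, which remove methyl groups from lanosterol, averaged 80.5 ± 40.2 and 39.4 ± 22.1 CPM in the libraries labelled AIH, beside 57.2 ± 17.1 and 32.9 ± 9.96 CPM for the controls (SD, n = 3 per group). Pmvk, a kinase of the mevalonate arm, and Fdps stood at log2 fold changes of 0.05 (SE 0.64) and −0.01 (SE 0.46). The interval of Fdps, −1.04 to 1.03, is wide, so the missed threshold does not show equal levels.

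The other enzymes of the route varied widely between libraries of the same group. Mvk, the mevalonate kinase, was counted 0, 22 and 307 times in the libraries labelled AIH and 0, 136 and 0 times in the controls, and its fitted log2 fold change of 1.18 was 9.92 without Control 2 and −2.23 without AIH 3. Hsd17b7, a ketone reductase of the late pathway, was counted 641 times in Control 2 and at most 93 times in any other library; its log2 fold change of −2.63 was −0.45 without Control 2. Idi1, the isomerase of the isoprene units, was counted 2660 times in Control 1 and 237 times in Control 3, and its log2 fold change of −0.60 was 0.37 without Control 1. For both genes a single control library held most of the control counts. Mvd (mevalonate decarboxylase) was counted 14 times in Control 3 and 105 to 371 times in the other libraries. Lss, which closes the ring of lanosterol, was counted between 0 and 120 times. Nsdhl, which takes part in removal of the methyl groups at carbon 4, was counted 1012 times in AIH 2 and 1063 times in Control 1 but 94 to 200 times in the rest. For Mvd, Lss and Nsdhl the range within each group was wider than the gap between the group means. Dhcr7, the last reductase before cholesterol, was at 11.1, 12.1 and 3.21 CPM and at 9.51, 34.0 and 19.4 CPM, and the log2 fold change was −1.25 (SE 0.94).

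Among the regulators, Srebf2 was lower in every library labelled AIH, while Insig1 ran from 49.2 to 109 CPM with overlapping groups. Srebf2 (Entrez ID 20788), the factor that mainly drives sterol genes, was at 8.59, 11.7 and 26.9 CPM in the libraries labelled AIH and at 47.8, 51.4 and 49.3 CPM in the controls. The controls lay within 1.08-fold of each other and well above all 3 others. Its log2 fold change was −1.66 (SE 0.61), with an adjusted p of 0.522 in the quasi-likelihood test of edgeR, and ran from −2.30 without AIH 3 to −1.35 without AIH 1. With the mean of the macrophage markers as a covariate it was −1.03 (SE 0.81), and without AIH 1 and Control 3 it was −1.36. Macrophage markers were lower in the same libraries, as were B cell and endothelial markers, and beyond these values the part of such markers in this and the other results was not tested.

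Insig1 (231070), itself a target of SREBP, was at 109, 82.6 and 78.0 CPM in the libraries labelled AIH and at 76.4, 82.0 and 49.2 CPM in the controls. The groups overlapped, with a log2 fold change of 0.38 (SE 0.37) and an interval of −0.45 to 1.21; it was 0.019 without AIH 1 and Control 3 and −0.20 with the macrophage mean in the model. Srebf1 (20787), the factor that mainly drives fatty acid genes, was at 2.03, 10.2 and 27.6 CPM and at 20.4, 14.4 and 89.0 CPM. Control 3 lay far above the rest, and the log2 fold change of −1.64 (SE 1.03) was −0.39 without it and 1.25 with the macrophage mean in the model. Scap, the escort, was at 10.7, 1.91 and 33.9 CPM and at 4.88, 21.9 and 44.3 CPM, and its log2 fold change of −0.61 was 0.22 without Control 3. The median of the 4 regulators, −1.13, was −0.10 without Control 3 and 0.072 without AIH 1 and Control 3.

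Fatty acid synthesis, elongation and desaturation showed 4 positive and 5 negative log2 fold changes among 9 tested genes, with a median of −0.11. Scd2 (20250), a desaturase that makes monounsaturated fatty acids, was the 1 gene whose groups did not overlap. It was at 33.1, 33.5 and 24.3 CPM in the libraries labelled AIH and at 46.5, 82.7 and 66.4 CPM in the controls. All 3 libraries labelled AIH lay below the lowest control, and the log2 fold change was −1.11 (SE 0.45) with an adjusted p of 0.566 in the quasi-likelihood test of edgeR. It was −1.17 without AIH 1 and Control 3 and −1.38 (SE 0.70) with the macrophage mean in the model. Its paralog Scd1 (20249) was at 71.9, 49.4 and 52.2 CPM and at 79.1, 48.7 and 90.3 CPM, with overlapping groups and a log2 fold change of −0.33 (SE 0.41). In 3 libraries the counts of both paralogs were not whole, so some reads may have been split between them, and both values are uncertain to that extent.

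Acly, which supplies cytosolic acetyl-CoA from citrate, was at 124, 67.8 and 85.5 CPM in the libraries labelled AIH and at 49.8, 83.1 and 165 CPM in the controls, and the groups overlapped. Fasn, the fatty acid synthase, was at 3.25, 28.4 and 17.1 CPM and at 7.94, 13.8 and 16.2 CPM, and the log2 fold change was 0.36 (SE 0.98), or −0.30 without AIH 2. Acaca, the carboxylase that makes malonyl-CoA for Fasn, was counted 0, 137 and 14 times and 120, 184 and 355 times. Its log2 fold change of −2.01 (SE 1.86) was −4.73 without AIH 2 and −0.47 with the macrophage mean in the model.

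Elovl1, Elovl5 and Elovl6 lengthen fatty acid chains. Elovl5, which acts on polyunsaturated chains, was at 206, 102 and 202 CPM in the libraries labelled AIH and at 140, 188 and 147 CPM in the controls, and the log2 fold change was 0.10 (SE 0.34). Elovl1 was at 81.8 ± 56.8 and 77.4 ± 6.23 CPM (SD, n = 3 per group), and Elovl6, which lengthens palmitate, was at 53.1 CPM in AIH 1 and 0.682 CPM in AIH 3. Fads1, a desaturase of polyunsaturated fatty acids, was counted 0 times in AIH 1 and 759 times in Control 3.

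**Figure D3:**
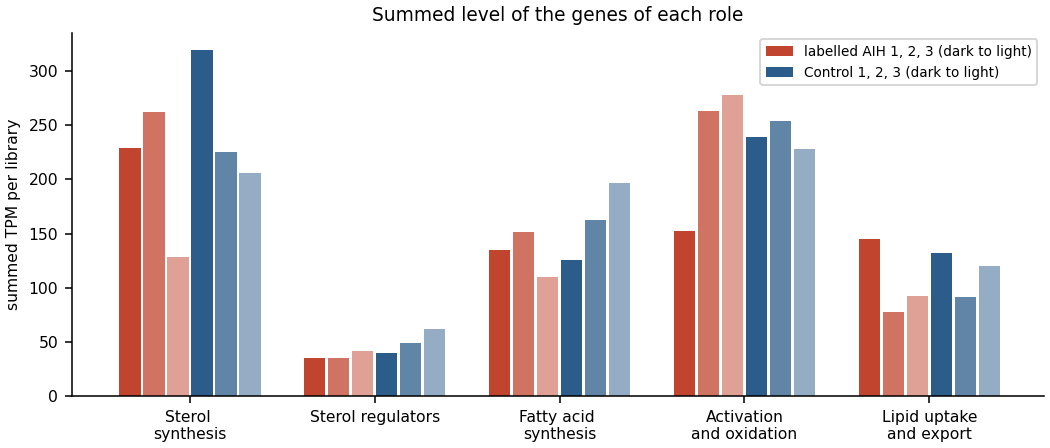
Summed TPM of the genes of each role in each library, red for the libraries labelled AIH and blue for Control, replicates 1 to 3 from dark to light. The groups overlap for each of the 5 roles, for example at 128 to 262 TPM against 206 to 320 TPM for sterol synthesis.

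Summed over the genes of a role, the ranges of the groups overlapped for all 5 roles. The sterol regulators summed to 35.4, 35.0 and 41.5 TPM in the libraries labelled AIH and to 40.2, 48.7 and 62.3 TPM in the controls. These ranges barely met. Most of these sums was Insig1, with means of 29.1 and 26.2 TPM and a positive log2 fold change. Of the 62.3 TPM in Control 3, 21.5 TPM were Srebf1. Fatty acid activation and oxidation summed to 152, 263 and 278 TPM in the libraries labelled AIH and to 239, 254 and 228 TPM in the controls, and fatty acid synthesis to 135, 151 and 110 TPM and to 125, 162 and 196 TPM. For these 2 roles the gap between the group means was smaller than the SD of at least 1 group, as the plot of summed levels shows.

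The genes of fatty acid activation and oxidation divided in direction, with 5 positive and 5 negative log2 fold changes and a median of −0.12, and held the 1 gene of the 42 that was higher in every library labelled AIH. This was Acsl4 (50790), an acyl-CoA synthetase that prefers arachidonic acid and is known for making membranes prone to ferroptosis. It was at 253, 171 and 183 CPM in the libraries labelled AIH and at 127, 139 and 104 CPM in the controls. The lowest library labelled AIH lay above the highest control, with a log2 fold change of 0.71 (SE 0.30) and an adjusted p of 0.583 in the quasi-likelihood test of edgeR. The value was 0.41 without AIH 1 and Control 3 and 0.24 (SE 0.41) with the macrophage mean in the model.

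Of the other acyl-CoA synthetases, Acsl1 was lower and Acsl5 overlapped. Acsl1 (14081), a synthetase that feeds fatty acids to oxidation and to lipid stores and that macrophages express, was at 5.01, 6.49 and 17.4 CPM in the libraries labelled AIH and at 18.3, 23.2 and 34.6 CPM in the controls. The groups were apart by less than 1 CPM between AIH 3 and Control 1, and the log2 fold change was −1.40 (SE 0.83), or −0.80 without AIH 1 and Control 3 and −0.40 (SE 1.10) with the macrophage mean in the model. Acsl5, a synthetase of mitochondria and the endoplasmic reticulum, was at 53.3 ± 10.6 and 84.1 ± 36.2 CPM (SD, n = 3 per group), with a log2 fold change of −0.66 that was −0.26 without Control 3. Relatives outside the 42 genes, chosen after their values were seen, went both ways. Acsbg1 was at 41.9, 52.7 and 48.3 CPM in the libraries labelled AIH and at 15.9, 36.1 and 17.5 CPM in the controls. Its groups did not overlap, and its adjusted p was 0.680 in the quasi-likelihood test of edgeR. Acsl3 was at 0.107, 1.91 and 0.390 CPM and at 0.604, 5.89 and 6.23 CPM, with overlapping groups and a log2 fold change of −2.39 (SE 1.76).

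Cpt1a (12894), the carnitine transferase that limits entry of fatty acids into mitochondria, was at 90.5, 19.5 and 12.0 CPM in the libraries labelled AIH and at 58.1, 64.7 and 56.6 CPM in the controls. AIH 1 was the highest of all 6 libraries and the other two labelled AIH were the lowest, so that the log2 fold change of −0.56 (SE 0.71) was −1.93 without AIH 1. Cpt2, its partner in the inner membrane, was counted 1, 0 and 532 times in the libraries labelled AIH and 90 to 290 times in the controls, so that its log2 fold change of 0.37 was −7.74 without AIH 3.

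Acadvl, Acadl and Acadm encode dehydrogenases that start each round of oxidation, each for its own chain length, and none passed the test. Acadvl (11370), for very long chains, was at 1.97, 26.4 and 26.5 CPM in the libraries labelled AIH and at 40.2, 45.3 and 45.1 CPM in the controls. The groups did not overlap, the log2 fold change was −1.25 (SE 0.85), and it was −0.72 without AIH 1, −0.69 without AIH 1 and Control 3, and −0.05 with the macrophage mean in the model. Acadl, for long chains, was at 119 ± 24.9 and 95.2 ± 21.4 CPM (SD, n = 3 per group), and the log2 fold change was 0.33 (SE 0.33). Acadm, for medium chains, was counted 14 times in AIH 1 and 1901 times in AIH 3, its groups overlapped, and its log2 fold change of 0.84 was −0.24 without AIH 3.

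Hadha and Hadhb encode the alpha and beta subunits of the trifunctional protein, which carries out the later steps of long-chain oxidation, and they are transcribed away from each other from neighbouring starts. Their RefSeq start sites lie 273 bases apart on chromosome 5, so that both windows share 228 bases, shown in capitals within the Hadhb window because the log2 fold changes of the pair differed in sign.
Hadhb, chr5:30155003-30155302 of GRCm38.p6, plus strand: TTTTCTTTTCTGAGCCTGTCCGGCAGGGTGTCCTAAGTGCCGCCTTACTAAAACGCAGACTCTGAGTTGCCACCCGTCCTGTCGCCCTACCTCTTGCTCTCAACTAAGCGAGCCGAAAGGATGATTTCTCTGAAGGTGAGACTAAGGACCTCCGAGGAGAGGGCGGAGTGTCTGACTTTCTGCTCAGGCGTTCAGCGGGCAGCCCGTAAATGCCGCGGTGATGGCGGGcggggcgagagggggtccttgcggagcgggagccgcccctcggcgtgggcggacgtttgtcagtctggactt
Hadha (97212) was at 20.2, 34.8 and 37.1 CPM in the libraries labelled AIH and at 40.0, 47.8 and 49.4 CPM in the controls. All 3 controls lay above, with a log2 fold change of −0.58 (SE 0.49), which was −0.29 without AIH 1 and Control 3 and −0.13 with the macrophage mean in the model. Hadhb (231086) was at 77.4, 233 and 201 CPM and at 134, 152 and 73.7 CPM, with overlapping groups and a log2 fold change of 0.51 (SE 0.45). The ratio of Hadhb to Hadha in TPM came to 5.21, 9.15 and 7.41 in the libraries labelled AIH, beside 4.58, 4.36 and 2.05 in the controls. The ratio, chosen after the values were seen, was higher in every library labelled AIH. Any ratio that separates 3 from 3 libraries gives an exact two-sided permutation p of 0.1, so that p adds no support here. By transcript, the Hadhb form NM_145558.2 averaged 52.1 TPM in the libraries labelled AIH and 52.3 TPM in the controls. The form NM_001289799.1 averaged 24.3 and 8.06 TPM, so the higher mean of Hadhb lay in that form. The error of this assignment was not modelled. Neither gene passed the test over all genes.

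**Figure D4:**
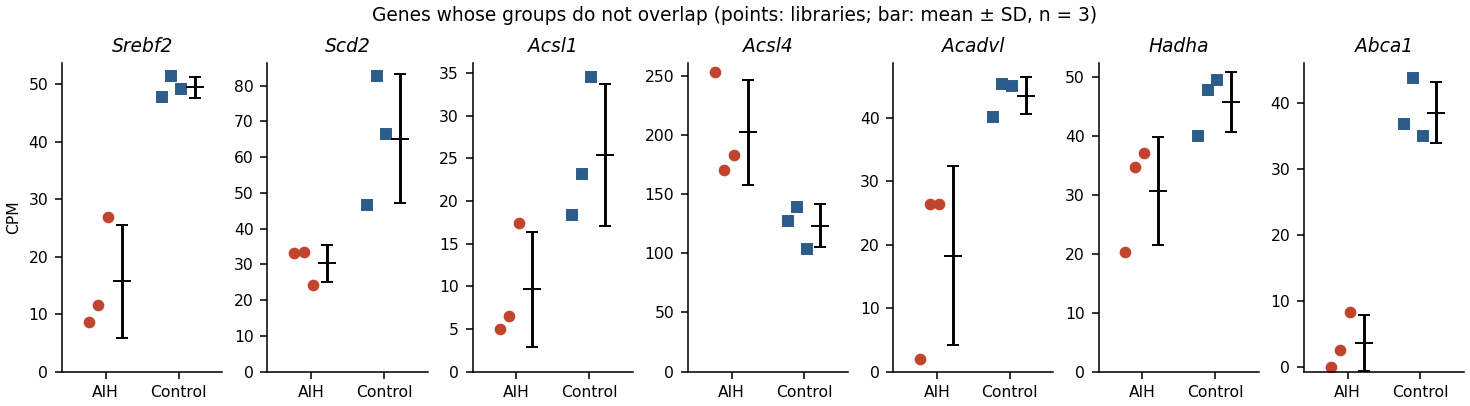
CPM of the 7 genes whose groups did not overlap, 1 point per library with the mean ± SD of 3 libraries beside it; each panel has its own axis. Acsl4 lies higher in the libraries labelled AIH and the other 6 lower, with Abca1 at 0 to 8.33 CPM against 35.0 to 43.8 CPM.

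Of the 4 genes of lipid uptake and export, Abca1 stood furthest from 0. Abca1 (11303), which exports cholesterol to apolipoproteins, was counted 0, 55 and 171 times in the libraries labelled AIH and 914, 848 and 915 times in the controls. In CPM this was 0, 2.50 and 8.33 against 36.8, 43.8 and 35.0, so the controls were close to each other and every library labelled AIH was far below. The log2 fold change was −3.41 (SE 1.43) with an adjusted p of 0.583 in the quasi-likelihood test of edgeR, and over the 15 alternatives that p ran from 0.135 in DESeq2's Wald test up to 0.9987 with the macrophage mean in the model. Leaving out 1 library gave log2 fold changes from −4.95 (AIH 3) to −2.82 (AIH 1), and the value was −2.89 without AIH 1 and Control 3 and −1.92 (SE 1.60) with the macrophage mean in the model. Macrophages are known to express Abca1, and their markers were lower in the same libraries. Among the controls Abca1 stayed within 1.25-fold, while the summed macrophage markers ran from 3480 to 15746 CPM. In AIH 1, 2 and 3, Abca1 was at 0, 2.50 and 8.33 CPM, and the macrophage sums were 386, 2096 and 2713 CPM. The part of macrophage RNA in the Abca1 values was not tested.

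The second exporter, Abcg1 (11307), which passes sterol to high-density lipoprotein, was at 145, 168 and 96.1 CPM in the libraries labelled AIH and at 182, 122 and 151 CPM in the controls. The groups overlapped, and the log2 fold change of −0.16 (SE 0.33) had an interval of −0.89 to 0.58. On the TPM scale Abcg1 averaged 19.6 in the libraries labelled AIH and 25.2 in the controls, above Abca1 at 0.293 and 3.61. Cd36 (12491), a scavenger receptor that takes up fatty acids, was at 4.32, 14.7 and 13.2 CPM and at 25.9, 6.45 and 35.4 CPM. Control 2 lay inside the range of the libraries labelled AIH, and the log2 fold change was −1.07 (SE 0.93), or −0.59 without Control 3, −0.21 without AIH 1 and Control 3, and 0.84 with the macrophage mean in the model. Fabp5 (16592) was at 133, 38.4 and 72.4 CPM and at 79.5, 52.1 and 55.6 CPM, and the log2 fold change was 0.38 (SE 0.49), or −0.17 without AIH 1.

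A wider list of 70 genes of the same pathways, chosen for role but with earlier results of these data known, was fitted in the same way. Of its genes, 68 were in the table and 61 of these were tested, 0 passed in the quasi-likelihood test of edgeR (1 did by DESeq2's Wald test), 25 log2 fold changes were positive and 36 negative, and the median was −0.24. At an unadjusted p under 0.05, 5 were lower (3.85% of all genes tested) and 1 was higher (4.42%) in the libraries labelled AIH. The groups did not overlap for 11 of the 61 (17.3% of all genes tested), 4 with every library labelled AIH above and 7 below. The totals in either direction lie near the shares over all genes, with 9.84% of the 61 at that unadjusted p beside 8.27%. The 5 lower genes lie above their share and the 1 higher gene below it. The split was not tested. Lpl, the lipase that frees fatty acids from lipoproteins and that macrophages express, was at 1.87, 7.08 and 19.0 CPM against 99.9, 17.1 and 247 CPM. It was the 1 gene called by DESeq2, and its groups overlapped through AIH 3 and Control 2. Nr1h2, which encodes liver X receptor beta, an inducer of Abca1 and Abcg1, was at 10.1, 17.7 and 11.5 CPM against 39.2, 32.1 and 51.2 CPM. Lipa, the lysosomal lipase that frees cholesterol from esters, was at 45.1, 58.4 and 47.5 CPM against 111, 75.7 and 139 CPM. For Nr1h2 and Lipa every library labelled AIH lay below every control, as it did for Acss2, which makes acetyl-CoA from acetate.

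The other two genes were Crat, a carnitine transferase for short chains with overlapping groups, and Eci1, the higher one. Eci1, a mitochondrial isomerase needed to oxidise unsaturated fatty acids, was at 81.5, 66.3 and 79.2 CPM in the libraries labelled AIH against 28.2, 42.2 and 38.0 CPM in the controls. Its log2 fold change was 1.07 (SE 0.40), and the adjusted p was 0.532 in the quasi-likelihood test of edgeR. All 3 libraries labelled AIH lay above the highest control. Hadh, Acads and Etfdh, other oxidation genes of the wider list, had every library labelled AIH below every control. Their log2 fold changes were −0.80 (SE 0.52), −1.68 (SE 1.39) and −1.26 (SE 0.76).

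The transcript table listed 82 transcripts of the 42 genes, of which 52 were tested and 0 passed in the quasi-likelihood test of edgeR, where 0% of 17999 transcripts passed. At an unadjusted p under 0.05 there were 2, against 4.16% of all transcripts tested, and they belonged to Srebf2 and Acsl4. For Srebf2 the predicted model XM_006520685.2 held 161, 246 and 388 counts in the libraries labelled AIH, beside 1186, 996 and 1289 in the controls, and it was the 1 transcript of these genes called by DESeq2's Wald test. For Acsl4 the transcript NM_001033600.1 held 4655, 3713 and 3698 counts against 3108, 1137 and 2671, while NM_019477.3 held 1560 counts in Control 2 and at most 96 elsewhere. The counts of several genes, among them Abca1, Acsl1, Acaca and Dhcr7, were assigned to different transcripts in different libraries. Those of Cd36 were all given to XM_030254088.1 in AIH 1 and in every control, and to other transcripts in AIH 2 and AIH 3. In Control 1 all 914 counts of Abca1 were given to NM_013454.3, and in Control 3 all 915 were given to XM_006537555.3. The error of such assignments was not modelled, so gene values are the base of the results above.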

How the data were processed

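The members and gene lists were chosen with earlier results of these data known. The authors deposited 1 table of genes and 1 of transcripts. The expected counts deposited by the authors were not normalized; per library, 14.8 to 16.7% of values had a fractional part. The TPM values, so named per the file headers and deposited by the authors, were used to compare levels between genes. Per the submitters' processing notes, the tools were FastQC, STAR and featureCounts, with builds GRCm39 and mm39; the program that shared reads is not given in the sources used here. Rounded expected counts entered edgeR 4.0.16 (R 4.3.3), with TMM scaling, the filter filterByExpr (at least 10 counts, total at least 15), a quasi-likelihood fit on the group alone, and Benjamini-Hochberg adjustment over all genes tested at 0.05. The biological coefficient of variation was 0.948, which is high, so precision is low at any depth. SE was taken from the fold change and its F statistic, and intervals (95%) use it with 4 residual and 5.45 prior degrees of freedom; both are approximate, and SE is rough for low counts. Counting error alone is not shown: reads carry no molecular identifiers. With this spread a missed threshold does not show that levels were equal. Alternatives were DESeq2 1.42.0, limma-voom (limma 3.58.1), other scalings and filters, a replicate block, libraries left out, and the mean log2 CPM of 13 macrophage markers as a covariate; no library labelled AIH reached the lowest control in that mean, so it can take up part of any group difference. Every member is named. Values in every library were set for 15 members and added for those with groups apart or an unadjusted p under 0.05. Other members so shown, and Lpl, Nr1h2, Nr1h3, Lipa, Eci1, Hadh, Acads, Etfdh, Acsbg1 and Acsl3, were chosen after their values were seen. Promoters and all 42 gene IDs were matched to RefSeq tables of GRCm38.p6, another build than that of the notes.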

Additional observations from a re-analysis of the deposited data

How the results depend on the processing

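None of the 41 members tested passed the threshold in any of the 15 alternatives that tested it. The filter of 10 CPM tested 33 of them, of which 15 had the same sign in every alternative, as did 2 others (Hsd17b7 and Acaca) in all that tested them. The sign differed from the one reported for 14 members with the macrophage covariate, for 10 without AIH 1 and Control 3, for 7 with the replicate block and 7 by limma-voom. The count of all genes called, 10, was 180 by DESeq2's Wald test, 21 by limma-voom, 32 with no filter, 3 with library totals, 0 with the replicate block, 0 with the macrophage covariate, 1 without AIH 1 and Control 3, and 0 to 1 with each library left out in turn (0 without AIH 2, Control 1, Control 2 or Control 3). DESeq2 called 1 gene of the wider list (Lpl) and 1 transcript (of Srebf2). The median of activation and oxidation was −0.63 with a minimum of 10 CPM in 3 libraries, −0.61 with the replicate block, −0.61 by limma-voom, 0.096 with the macrophage covariate and −0.49 to 0.025 with each library left out. That of uptake and export was −0.31 with the covariate, −0.23 without AIH 1 and Control 3, and −0.90 to −0.37 with each library left out. That of the regulators was 0.21 with the covariate, 0.072 without AIH 1 and Control 3, and −2.12 to −0.10 with each library left out. That of sterol synthesis was −0.72 with the covariate, and that of fatty acid synthesis lay from −0.51 to 0.05 with each library left out. The causes of these shifts were not tested. Deviations of libraries with the same number correlated at 0.0132, 0.00134 and 0.191 for numbers 1, 2 and 3. AIH 3 alone correlated best with its own number. With 3 libraries per group these values cannot show whether the numbers pair the libraries. No member was called with the block or without it. Alternatives for data without counts were not run, since counts were present. The limits set by depth and by the spread between libraries were not compared. Fold changes of Mvk, Lss, Acaca, Fads1, Cpt2 and Abca1, each with a library at 0, are fitted values and no bounds.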

Other observations

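Of 5 genes of dividing cells, 2 were higher in every library labelled AIH, as were 8.46% of all genes tested. Ccnb1, a cyclin that starts mitosis, was at 60.3, 87.3 and 62.2 CPM in the libraries labelled AIH and at 37.2, 13.1 and 34.9 CPM in the controls. Its partner kinase Cdk1 was at 71.9, 82.0 and 86.9 CPM and at 24.1, 50.7 and 28.2 CPM. The groups overlapped for Mki67, Top2a and Birc5, and none of the 5 passed the test, with adjusted p-values of 0.555 for Ccnb1 and 0.505 for Cdk1 by edgeR's quasi-likelihood test.
Cd8a, a chain of the coreceptor of cytotoxic T cells, was at 119, 46.8 and 132 CPM in the libraries labelled AIH and at 9.99, 15.3 and 26.3 CPM in the controls, with an adjusted p of 0.317 by edgeR's quasi-likelihood test. Its partner chain Cd8b1 was at 87.6, 75.1 and 177 CPM and at 97.4, 49.8 and 27.9 CPM, and its groups overlapped. Cd4 was at 49.3, 93.3 and 28.3 CPM and at 109, 82.0 and 80.7 CPM, and its groups overlapped. The part of these genes in the lipid gene results was not tested.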
